A study of Mus musculus with 6 samples.

Results

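The transcripts described here are 32 mouse genes of cholesterol synthesis, uptake and SREBP2 control, taken by gene name from the 54532 genes of the count table, with a list chosen when earlier results of these data were known. The genes fall into 5 steps: 8 of the mevalonate and isoprenoid steps, 11 of the squalene and sterol steps, 4 of SREBP2 regulation, 5 of uptake, transport and storage, and 4 of efflux and LXR. RNA-seq was performed on total RNA from MLE12 cells, an immortalized mouse lung epithelial line that expresses a viral large T antigen and serves as a model of alveolar type 2 cells. The labels give the strain as C57BL/6J. All cells were grown in a hormone-supplemented medium with 2% fetal bovine serum. The Ctrl shRNA group (n = 3) was infected with a control lentivirus, which the authors describe as empty and for which they also list a sequence. The Idh3α shRNA + Slc25a1 shRNA group (n = 3), called the knockdown below, was infected at the same time with a lentivirus that silences Idh3α and one that silences Slc25a1. The multiplicity of infection was 50 for each virus, and cells spent 16 h with virus and 80 h after its removal. The labels do not say whether the total dose of virus was matched between the groups, and a difference in viral load could not be told apart from silencing. No label says whether the replicates were separate cultures, so the p-values measure the spread between these samples, which may be technical.

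Idh3α is the catalytic alpha subunit of the mitochondrial isocitrate dehydrogenase that works downstream of citrate, and Slc25a1 is the carrier that takes citrate from mitochondria to the cytosol. Cytosolic citrate is cleaved to acetyl-CoA, the carbon source of both fatty acids and cholesterol. Acetyl-CoA is turned into mevalonate and isoprenoids, these are joined to squalene, and squalene is closed to lanosterol and trimmed to cholesterol. SREBP2, the product of Srebf2, is carried by SCAP to the Golgi and cut when sterols in the endoplasmic reticulum are low, and it then switches on the genes of this pathway, while INSIG proteins hold SCAP back when sterols are plentiful. LXR, a nuclear receptor for oxysterols, has the opposite role and switches on cholesterol efflux. Transcripts of the pathway are thus widely read as a gauge of how much sterol a cell senses, and the comparison asks how they stood in cells in which the exit and the use of mitochondrial citrate were silenced together.

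Promoter sequences of 3 of the genes are shown with letters, where present, through which the pathway is known to be controlled. The sequences are from RefSeq on GRCm38.p6, on the plus strand, and end before the first annotated base of the gene. Hmgcs1, an early enzyme of the pathway, is shown from chr13:119690101-119690350, Insig1, the feedback gene, from chr5:28071162-28071362, and Srebf2, the regulator itself, from chr15:82147019-82147180. Capitals mark the sterol regulatory element letters TCACNCCAC or their shortened form TCACCCCA, the CCAAT box (ATTGG on the other strand), which binds NF-Y, the partner of SREBP2, and the E-box CACGTG. The full element letters are in Hmgcs1 alone and Srebf2 holds only the shortened form. Insig1 holds neither, and its capitals are a CCAAT box and an E-box.
Hmgcs1: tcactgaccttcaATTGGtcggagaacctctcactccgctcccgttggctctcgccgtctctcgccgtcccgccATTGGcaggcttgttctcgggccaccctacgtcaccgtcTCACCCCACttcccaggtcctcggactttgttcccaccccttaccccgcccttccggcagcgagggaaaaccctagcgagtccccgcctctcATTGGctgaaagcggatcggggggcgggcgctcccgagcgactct
Insig1: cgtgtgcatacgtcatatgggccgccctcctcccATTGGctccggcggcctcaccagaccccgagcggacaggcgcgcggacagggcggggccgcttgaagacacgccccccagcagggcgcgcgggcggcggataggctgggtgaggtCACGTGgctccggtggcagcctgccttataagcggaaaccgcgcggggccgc
Srebf2: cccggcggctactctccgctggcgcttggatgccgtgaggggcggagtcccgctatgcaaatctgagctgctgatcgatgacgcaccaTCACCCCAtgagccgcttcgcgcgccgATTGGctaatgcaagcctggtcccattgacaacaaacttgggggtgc

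The letters TCACNCCAC were searched on both strands in windows from 250 bases before to 50 bases after each RefSeq start, which were at hand for 26 of the 32 genes. They were found in 1 of the 26 genes, Hmgcs1, where they start 137 bases before the RefSeq start, against 1.44% of the 27025 genes with a window. The shortened form, which was added after the Srebf2 promoter had been seen and which the full form of Hmgcs1 contains, was in 2 of the 26, Hmgcs1 and Srebf2, against 1.77% of all genes. The CCAAT box was in 21 of the 26 (80.8%) against 41.1% of all genes, and the E-box in 6 of the 26 (23.1%) against 8.09%. These are matches of letters and not measured binding.

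The total count ranged from 27273502 to 28535653 per library. After TMM scaling the effective library size was 19760000 counts in Ctrl shRNA 2 and 28680000 to 30960000 in the other 5, so that most genes were read less deeply in Ctrl shRNA 2. It stood apart from the others: its mitochondrially encoded transcripts took 6.49% of the counts against 1.57 to 1.80%, its 100 most abundant genes took 27.2% against 12.6 to 12.9%, and 16681 genes had a count against 19902 to 23147. The biological coefficient of variation was 0.263 with all 6 libraries and 0.102 without Ctrl shRNA 2, and each comparison is therefore given both ways. Gene positions are on GRCm38, as in the count table. Levels are given as CPM, the counts scaled to a common library size with TMM factors. Idh3a (ENSMUSG00000032279, chr9:54586334-54604661, plus strand) was at 79.8, 137 and 93.0 CPM in Ctrl shRNA 1, 2 and 3 and at 58.5, 57.9 and 55.5 CPM in knockdown 1, 2 and 3. Its log2 fold change was -0.85 (SE 0.20, adjusted p = 0.254, edgeR quasi-likelihood test) and, without Ctrl shRNA 2, -0.60 (SE 0.079, adjusted p = 0.0142). Slc25a1 (ENSMUSG00000003528, chr16:17925223-17928219, minus strand) was at 103, 98.7 and 108 CPM in the controls and 68.9, 69.6 and 63.0 CPM in the knockdown, a log2 fold change of -0.62 (SE 0.077, adjusted p = 0.104) and of -0.66 (SE 0.071, adjusted p = 0.00649) without Ctrl shRNA 2. Both targeted mRNAs were lower in all 3 knockdown libraries than in any control.

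Of the alveolar type 2 markers, Nkx2-1 was at 324 to 343 CPM in the controls and 277 to 302 CPM in the knockdown. In the same order, Sftpc was at 44.1 to 97.3 and 27.2 to 35.9 CPM, and Abca3 at 110 to 141 and 132 to 134 CPM. Napsa was at 0.453 to 0.759 and 1.18 to 1.38 CPM. Sftpb and Lamp3 were at most 2.49 and 0.371 CPM, Sftpd was at 0 in all libraries and Sftpa1 had counts in 1 alone. Of the epithelial markers Krt8, Krt19, Cdh1 and Epcam were detected and Krt18, Cldn4 and Cldn7 were near 0. Of the leukocyte markers Ptprc was at 0, Cd68 at 1.65 to 2.73 CPM and Csf1r, Lyz2 and Cd3e at most at 0.628 CPM. Of the fibroblast markers Col3a1 was at 0, Col1a1 at 16.5 to 22.8 CPM, Pdgfra at 2.23 to 3.91 CPM and Lum at most at 0.709 CPM. Dcn was at 297 to 354 CPM in the libraries other than Ctrl shRNA 2. The 5 fibroblast markers summed to 346 to 1234 CPM in the controls and 317 to 345 CPM in the knockdown. The highest of these values was Ctrl shRNA 2, through Dcn at 1211 CPM. The 8 alveolar type 2 markers summed to 524 to 533 CPM in the controls and 442 to 473 CPM in the knockdown. The part of these differences in the results was not tested. In bulk RNA, fewer cells of a kind and less RNA per cell cannot be told apart.

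MLE12 cells of both groups transcribed nearly the whole pathway, and 31 of the 32 genes passed the filter on low counts. The median of their mean levels was 73.3 CPM, against 23.3 CPM for the 15307 genes tested. To compare genes with each other, levels per length (FPKM) were used, with the SD over n = 3. Insig1 was the most abundant at 176 ± 12.5 FPKM in Ctrl shRNA and 162 ± 7.91 FPKM in the knockdown. It was followed in the controls by Cyp51, the lanosterol demethylase, at 74.3 ± 2.30 FPKM and Srebf2 at 70.4 ± 8.77 FPKM, whose ranges over the 3 controls overlapped. Hmgcs1 stood at 49.0 ± 2.02 FPKM. Of the transport genes, Stard4 was at 33.2 ± 1.15 FPKM and Npc2 at 32.5 ± 1.97 FPKM in the controls. The others were low: Abca1, the cholesterol efflux pump, was at 1.11 ± 0.078 FPKM, Npc1 at 1.71 ± 0.230 FPKM, Soat1, which esterifies cholesterol, at 0.715 ± 0.179 FPKM, and Mylip, the ubiquitin ligase that degrades lipoprotein receptors, at 0.378 ± 0.060 FPKM. Abcg1, the efflux partner of Abca1, had 0 counts in all 6 libraries, where a count of 0 allows up to 0.0969 to 0.152 CPM (3 counts, counting error only). Among the regulators, Nr1h2 (LXRβ) was at 31.3 ± 2.65 FPKM and Nr1h3 (LXRα) at 4.63 ± 0.543 FPKM.

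**Figure D1:**
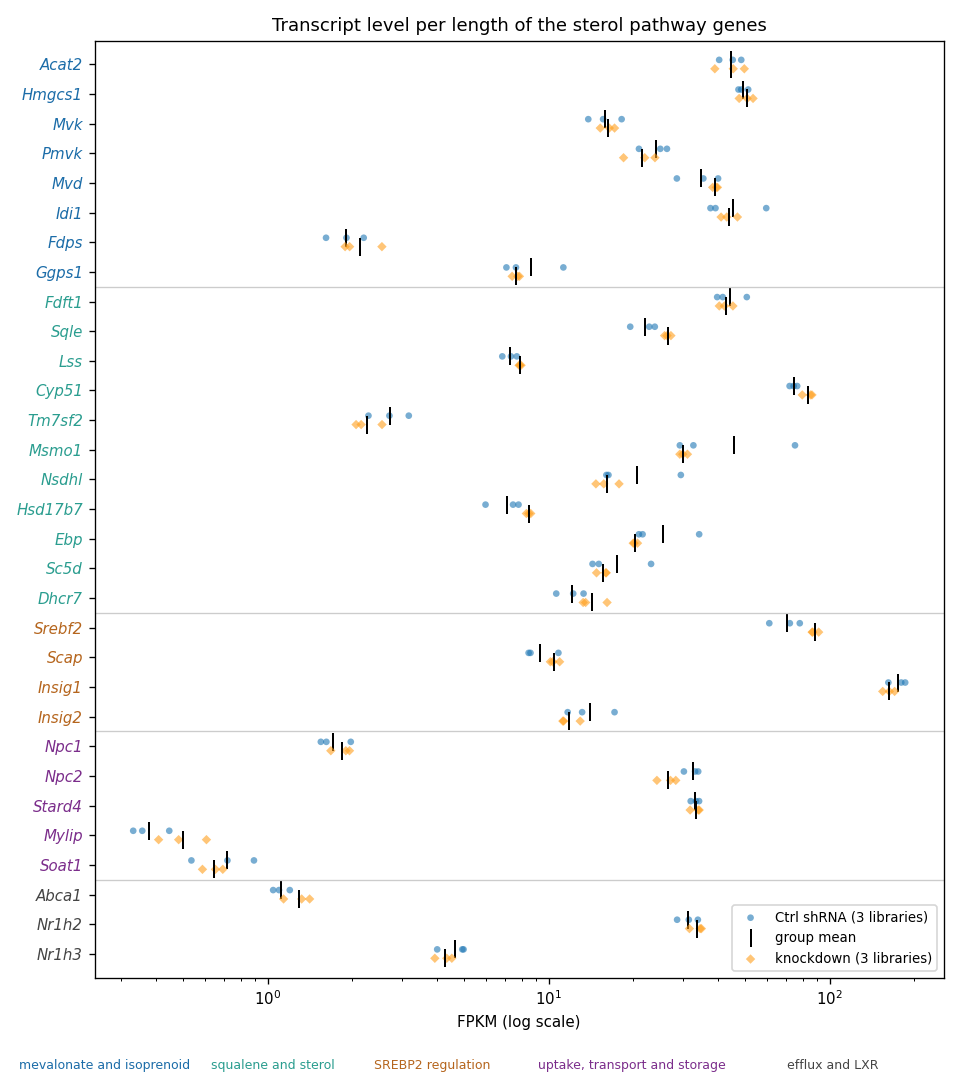
FPKM on a log axis of the 31 genes tested, with 1 point for each library, Ctrl shRNA in blue (n = 3), knockdown in orange (n = 3), and a bar at each group mean. Gene names are coloured by step. Insig1 was highest and Mylip lowest, and for most genes the groups overlapped.

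By edgeR no gene of the pathway was called between the groups, in either comparison. With all 6 libraries, edgeR called 0 of the 31 genes higher and 0 lower at an adjusted p under 0.05, where 0.0588% of all genes were called higher and 0.00653% lower. At an unadjusted p under 0.05, 2 were higher (Sqle and Srebf2) and 1 lower (Npc2), beside 7.47% higher and 6.65% lower of all genes. Without Ctrl shRNA 2, again 0 and 0 passed the adjusted threshold, where 1.11% of 15709 genes were called higher and 0.675% lower. Unadjusted, 4 were then higher (Idi1, Sqle, Cyp51 and Srebf2) and 3 lower (Tm7sf2, Insig1 and Npc2), beside 9.54% higher and 10.3% lower of all genes. DESeq2 called 0 and 0 of the 31 with all libraries, where it called 1.69% of all genes higher and 1.18% lower, and unadjusted 2 and 1, beside 7.16% and 10.5% of all genes. DESeq2 without Ctrl shRNA 2 called Srebf2 higher alone (adjusted p = 0.0289), where it called 3.43% higher and 2.36% lower. With sample quality weights, limma voom called Srebf2 (adjusted p = 0.0152) and Cyp51 (adjusted p = 0.0432) higher and Npc2 (adjusted p = 0.0340) and Tm7sf2 (adjusted p = 0.0462) lower, where it called 8.67% of all genes higher and 6.34% lower.

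The intervals give the sizes of difference that these libraries allow. The 95% interval of the log2 fold change lay within ±0.5 for 15 of the 31 genes with all libraries and for 28 of the 31 without Ctrl shRNA 2. The estimates split evenly, 16 above 0 and 15 below, and their median was 0.0070, against -0.0092 for all genes tested. Without Ctrl shRNA 2, 19 were above 0 and 12 below, and the median was 0.049 against -0.015. The median size of the log2 fold change, signs aside, was 0.17 for the pathway and 0.22 for all genes, and 0.071 against 0.16 without Ctrl shRNA 2. No gene of the 31 reached a log2 fold change of 1 in either direction, a size reached by 8.15% of all genes with all libraries and 2.93% without Ctrl shRNA 2. All genes were not matched to the pathway in level, with a median of 23.3 CPM against 73.3 CPM. The part of level in these differences was not tested. The largest estimates of the pathway were 0.61 in size (Msmo1) with all libraries and 0.39 (Tm7sf2) without Ctrl shRNA 2.

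**Figure D2:**
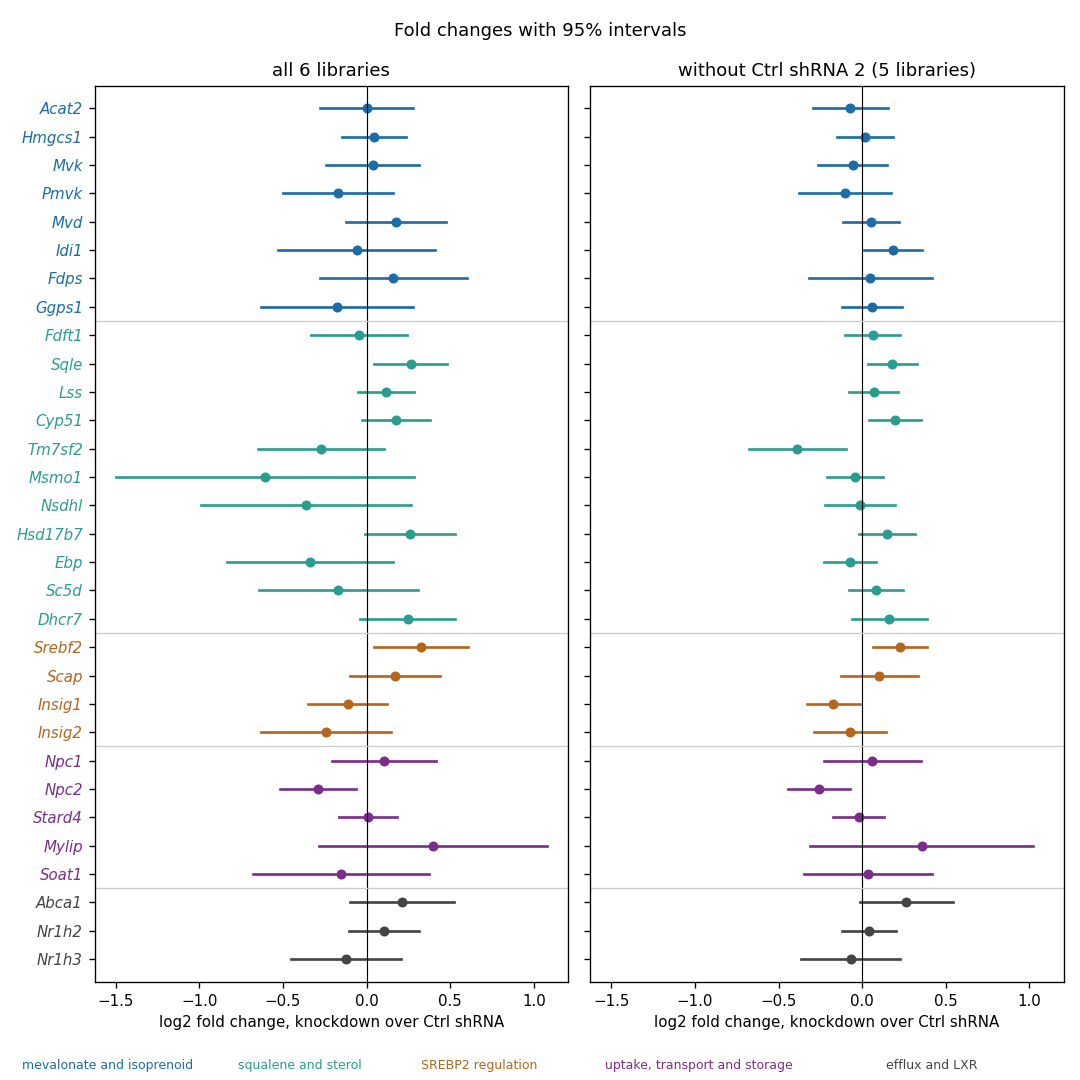
Log2 fold change of the knockdown over Ctrl shRNA for each of the 31 genes tested, with its 95% interval from edgeR, with all 6 libraries (left) and without Ctrl shRNA 2 (right), coloured by step. The widest interval on the left, that of Msmo1 from -1.50 to 0.28, ran from -0.21 to 0.12 on the right.

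**Figure D3:**
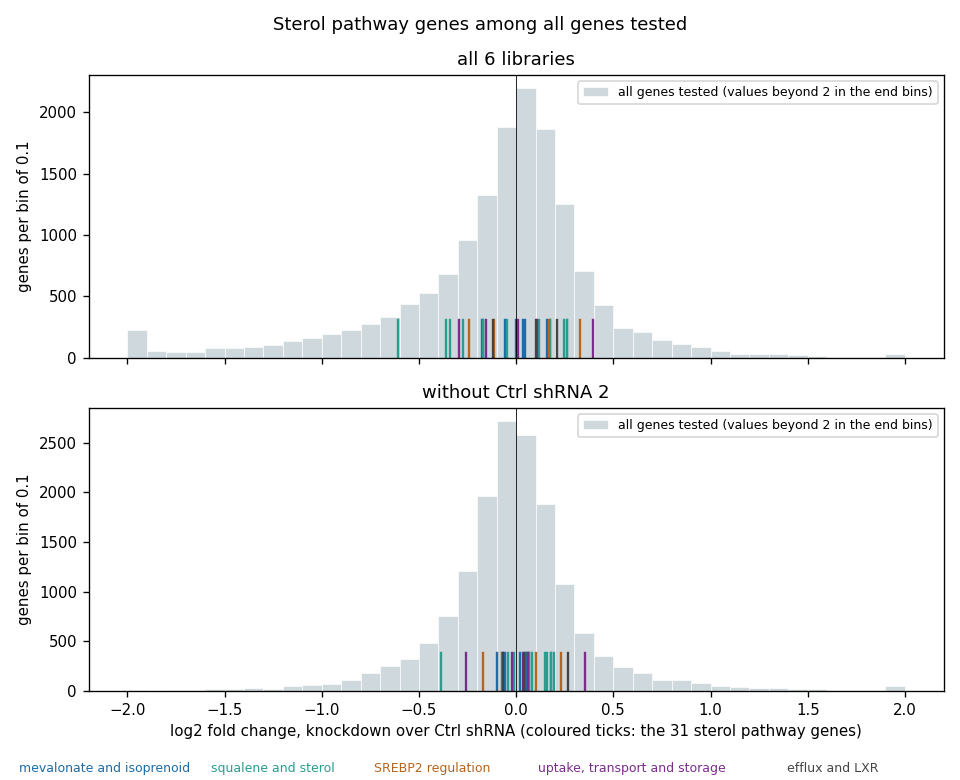
Number of genes per bin of 0.1 in log2 fold change for all genes tested (grey, values beyond 2 in size in the end bins), with the 31 pathway genes as coloured ticks, with all 6 libraries (top) and without Ctrl shRNA 2 (bottom). The ticks lay in the centre of the distribution, within 0.61 of 0 at the top and 0.39 at the bottom.

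The groups did not overlap in CPM for 7 of the 31 genes over all 6 libraries. Of these, 5 were higher in the knockdown (Sqle, Lss, Cyp51, Hsd17b7 and Srebf2), beside 14.7% of all genes, and 2 were lower (Ebp and Npc2), beside 10.7%. Both counts are near the share of all genes. Without Ctrl shRNA 2, Idi1 and Abca1 joined the higher genes and Tm7sf2 and Insig1 the lower ones, giving 7 and 4, beside 20.4% and 17.5% of all genes.

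The mevalonate and isoprenoid steps build the carbon chains. In edgeR 0 of the 8 genes passed the adjusted threshold in either direction, beside 0.0588% of all genes higher and 0.00653% lower. Without Ctrl shRNA 2 it was again 0, beside 1.11% and 0.675%. The median log2 fold change of the 8 was 0.018 with all libraries and 0.034 without Ctrl shRNA 2. No gene separated the groups over all 6 libraries, beside 14.7% of all genes higher and 10.7% lower. Hmgcs1 (ENSMUSG00000093930, chr13:119690379-119708260, plus strand), which condenses acetyl-CoA units on the way to mevalonate and whose promoter above holds the only full sterol regulatory element found, was at 234, 219 and 221 CPM in Ctrl shRNA 1, 2 and 3 and at 244, 218 and 233 CPM in knockdown 1, 2 and 3. The groups overlapped fully, and its log2 fold change of 0.045 had a 95% interval from -0.15 to 0.24, and from -0.15 to 0.19 without Ctrl shRNA 2. Idi1 (ENSMUSG00000058258, chr13:8885501-8892451, plus strand), the isomerase of the isoprenoid unit, was at 131, 210 and 136 CPM in the controls and 143, 164 and 150 CPM in the knockdown. Ctrl shRNA 2 was highest of all 6 and the other controls were lowest, so the estimate turned from -0.060 with all libraries to 0.18 without it. Ggps1, which makes the chain used to anchor small GTPases, was also highest in Ctrl shRNA 2, with 33.1, 53.6 and 35.8 CPM in the controls and 34.8 to 37.0 CPM in the knockdown, and estimates of -0.18 and 0.059. It shares 257 exonic bases with Arid4b on the other strand, whose count was 246% of its own. The kinases Mvk and Pmvk, the decarboxylase Mvd and the thiolase Acat2 lay between -0.17 and 0.18 with all libraries and between -0.10 and 0.051 without Ctrl shRNA 2, where Mvd moved from 0.18 to 0.051, Pmvk from -0.17 to -0.10 and Mvk from 0.036 to -0.056. Fdps, the farnesyl diphosphate synthase, was low at 6.83 to 10.7 CPM, with estimates of 0.16 and 0.049, and shares 1124 exonic bases with another annotated gene on the same strand, and how reads in such bases were assigned is not given in the sources used here.

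Of the 11 genes of the squalene and sterol steps, 4 were higher and 1 lower without overlap between the groups over all 6 libraries, beside 14.7% and 10.7% of all genes. In edgeR 0 of the 11 passed the adjusted threshold, beside 0.0588% of all genes higher and 0.00653% lower. Without Ctrl shRNA 2 it was again 0, beside 1.11% and 0.675%. With limma voom and sample quality weights Cyp51 passed higher and Tm7sf2 lower, beside 8.67% and 6.34% of all genes. The median log2 fold change in edgeR was -0.048 with all libraries and 0.069 without Ctrl shRNA 2. Sqle (ENSMUSG00000022351, chr15:59315077-59331192, plus strand), the squalene epoxidase and a rate-setting oxygenase of the pathway, was at 125, 109 and 131 CPM in the controls and 146, 151 and 143 CPM in the knockdown. All 3 knockdown libraries were above all controls, with a log2 fold change of 0.26 (SE 0.091, adjusted p = 0.339) that was 0.18 (SE 0.064, adjusted p = 0.177) without Ctrl shRNA 2. Lss (ENSMUSG00000033105, chr10:76531588-76557138, plus strand), which closes the ring of lanosterol, was at 82.5, 74.3 and 78.4 CPM in the controls and 84.9, 85.8 and 84.2 CPM in the knockdown. The gap between the groups was narrow, and the log2 fold change was 0.12 (SE 0.070, adjusted p = 0.424) and 0.069 (SE 0.065, adjusted p = 0.590) without Ctrl shRNA 2. Cyp51 (ENSMUSG00000001467, chr5:4081145-4104746, minus strand) was at 316, 341 and 326 CPM in the controls and 376, 381 and 351 CPM in the knockdown. Its estimate was nearly the same with all libraries, 0.17 (SE 0.084, adjusted p = 0.372), as without Ctrl shRNA 2, 0.19 (SE 0.068, adjusted p = 0.175). Cyp51 shares 166 exonic bases with Akap9 on the other strand, and since the use of strand in counting is not stated, reads there could belong to either gene.

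Hsd17b7 (ENSMUSG00000026675, chr1:169949535-169969241, minus strand), which reduces the keto group left by demethylation, was at 39.6, 30.6 and 37.8 CPM in the controls and 43.9, 42.4 and 43.2 CPM in the knockdown. The groups stood apart, with Ctrl shRNA 2 the lowest, and the log2 fold change was 0.26 (SE 0.11, adjusted p = 0.356) and 0.15 (SE 0.073, adjusted p = 0.296) without that library. Ebp (ENSMUSG00000031168, chrX:8185329-8193512, minus strand), the sterol isomerase, was at 48.0, 79.8 and 49.4 CPM in the controls and 47.7, 46.4 and 46.0 CPM in the knockdown. Its groups did not overlap, but Ctrl shRNA 1 and knockdown 1 differed by less than 1 CPM, and the log2 fold change of -0.34 (SE 0.20, adjusted p = 0.423) was -0.071 (SE 0.069, adjusted p = 0.597) without Ctrl shRNA 2. Msmo1 (ENSMUSG00000031604, chr8:64718139-64733792, minus strand), the sterol methyl oxidase, gave the largest estimate of the pathway on Ctrl shRNA 2 alone. It was at 179, 466 and 199 CPM in the controls and 184, 191 and 179 CPM in the knockdown, so that Ctrl shRNA 2 was 2.46 times the mean of the other controls. Its log2 fold change was -0.61 with that library and -0.043 without it.

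Nsdhl, the sterol dehydrogenase that acts after Msmo1, was at 45.4, 84.8 and 46.1 CPM in the controls and 44.6, 50.6 and 41.8 CPM in the knockdown, with estimates of -0.36 and, without Ctrl shRNA 2, -0.013. Sc5d, the lathosterol desaturase, was at 113 CPM in Ctrl shRNA 2 and between 69.2 and 77.7 CPM in the other 5 libraries, with estimates of -0.17 and 0.082. In both genes Ctrl shRNA 2 was the highest of the 6 libraries. Tm7sf2, a sterol reductase, was at 15.1, 12.9 and 17.6 CPM in the controls and 14.2, 11.5 and 12.0 CPM in the knockdown, with estimates of -0.27 and -0.39. Its groups overlapped over all 6 libraries and separated when either Ctrl shRNA 2 or knockdown 1 was left out, and its model shares 532 exonic bases with Vps51 on the same strand. Dhcr7, which makes cholesterol from its last precursor on one branch, was at 76.8, 62.3 and 70.5 CPM in the controls and 78.4, 93.6 and 76.8 CPM in the knockdown, with estimates of 0.25 and 0.16. Fdft1, the squalene synthase, lay at 167 to 216 CPM in the controls and 170 to 191 CPM in the knockdown, with estimates of -0.048 and 0.064. It shares 774 exonic bases with Ctsb on the other strand, whose count was 250% of its own.

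Within SREBP2 regulation, the transcript of the factor itself and that of its feedback brake had estimates of opposite sign. Srebf2 (ENSMUSG00000022463, chr15:82147181-82205379, plus strand) was at 558, 441 and 514 CPM in Ctrl shRNA 1, 2 and 3 and at 620, 655 and 622 CPM in knockdown 1, 2 and 3. Every knockdown library was above every control, with a log2 fold change of 0.33 (SE 0.12, adjusted p = 0.344, 95% interval from 0.044 to 0.61), and of 0.23 (SE 0.071, adjusted p = 0.144, 95% interval from 0.067 to 0.39) without Ctrl shRNA 2. Insig1 (ENSMUSG00000045294, chr5:28071363-28078662, plus strand) was at 552, 504 and 569 CPM in the controls and 525, 476 and 502 CPM in the knockdown. Ctrl shRNA 2 lay within the knockdown range, and the estimates were -0.11 with it and -0.17 without it, where the groups no longer overlapped. Insig2, the paralogue of Insig1, was at 60.0 CPM in Ctrl shRNA 2 and between 38.8 and 45.3 CPM in the other 5 libraries, with estimates of -0.24 and -0.073. Scap, the escort of SREBP2, was at 80.0, 63.6 and 63.5 CPM in the controls and 75.2, 81.1 and 76.6 CPM in the knockdown, with estimates of 0.17 and 0.10. None of the 4 passed the adjusted threshold in edgeR, beside 0.0588% of all genes higher and 0.00653% lower. Without Ctrl shRNA 2 the shares were 1.11% and 0.675%, and again none of the 4 passed. DESeq2 without Ctrl shRNA 2 and limma voom with sample quality weights called Srebf2 higher, beside 3.43% and 8.67% of all genes. The median of the 4 edgeR estimates was 0.028 with all libraries and 0.015 without Ctrl shRNA 2. Srebf2 and Hmgcs1, whose promoters both hold TCACCCCA, had estimates of 0.33 and 0.045 with all libraries. These letters were chosen after the Srebf2 promoter had been seen, so the estimates are no test of them.

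**Figure D4:**
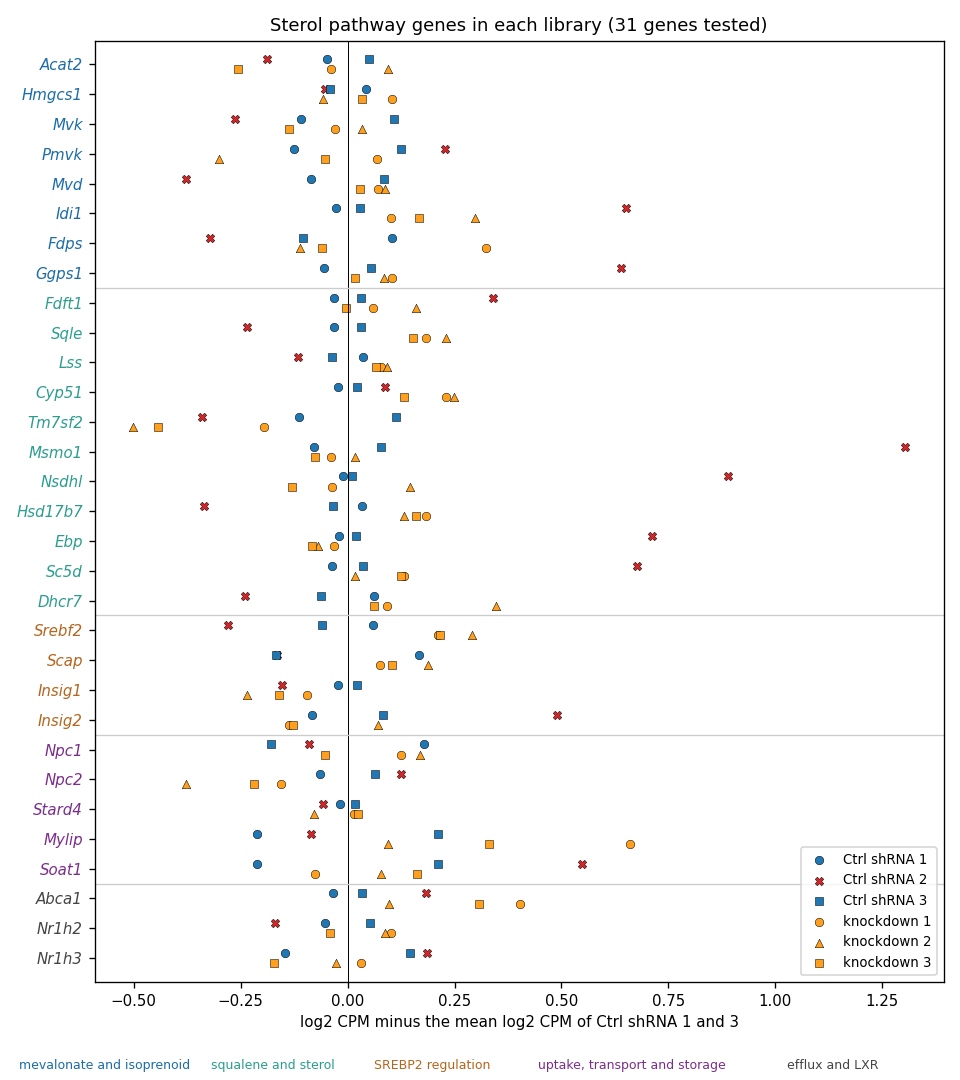
CPM of each library on a log2 scale, relative to the mean of Ctrl shRNA 1 and 3, for the 31 genes tested, with controls in blue, Ctrl shRNA 2 as a red cross and the knockdown in orange (n = 3 per group). Ctrl shRNA 2 was the highest of the 6 libraries in 12 genes and the lowest in 9, and Msmo1 was its farthest point, while the orange points of Srebf2, Sqle and Cyp51 lay to the right of all controls.

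Of the 5 genes of uptake, transport and storage, 1 had groups that did not overlap and was lower in the knockdown, beside 10.7% of all genes. Npc2 (ENSMUSG00000021242, chr12:84754562-84773152, minus strand), the lysosomal protein that hands cholesterol to Npc1, was at 163, 186 and 179 CPM in the controls and 153, 132 and 147 CPM in the knockdown. All 3 knockdown libraries were below all controls, with a log2 fold change of -0.29 (SE 0.093, adjusted p = 0.330) and of -0.26 (SE 0.082, adjusted p = 0.152) without Ctrl shRNA 2, so this estimate moved little with that library. Npc1, the membrane partner in the lysosome, was at 16.4 to 21.03 CPM in the controls and 17.9 to 20.9 CPM in the knockdown, with estimates of 0.10 and 0.061, and it shares 511 exonic bases with Rmc1 on the other strand. Stard4, a soluble sterol carrier and a known SREBP2 target, was at 185, 180 and 190 CPM in the controls and 190, 177 and 191 CPM in the knockdown, with estimates of 0.0070 and -0.022. Its groups overlapped fully. Soat1 was at 5.20 to 8.81 CPM in the controls and 5.71 to 6.74 CPM in the knockdown, with estimates of -0.15 and 0.036. Mylip, an LXR target, was at 1.07, 1.16 and 1.43 CPM in the controls and 1.95, 1.32 and 1.55 CPM in the knockdown, with an estimate of 0.39 whose interval ran from -0.29 to 1.08, and of 0.36 without Ctrl shRNA 2. In edgeR 0 of the 5 genes passed the adjusted threshold, beside 0.0588% of all genes higher and 0.00653% lower. Without Ctrl shRNA 2 it was again 0, beside 1.11% and 0.675%. With limma voom and sample quality weights Npc2 passed lower, beside 6.34% of all genes. The median estimate in edgeR was 0.0070 and, without Ctrl shRNA 2, 0.036.

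In efflux and LXR, 3 of the 4 genes could be tested. By edgeR 0 passed the adjusted threshold, beside 0.0588% of all genes higher and 0.00653% lower. Without Ctrl shRNA 2 it was again 0, beside 1.11% and 0.675%. The median estimate was 0.10 and, without Ctrl shRNA 2, 0.040. Abca1 (ENSMUSG00000015243, chr4:53030787-53159895, minus strand), the classical LXR target, was at 10.8, 12.5 and 11.3 CPM in the controls and 14.6, 11.8 and 13.6 CPM in the knockdown. Knockdown 2 lay below Ctrl shRNA 2, and the estimates were 0.21 with that library and 0.26 without it (95% interval from -0.014 to 0.54). Nr1h2 was at 96.7 to 113 CPM in the controls and 106 to 117 CPM in the knockdown, with estimates of 0.10 and, without Ctrl shRNA 2, 0.040. Nr1h3 was at 10.01 to 12.6 CPM in the controls and 9.85 to 11.3 CPM in the knockdown, with estimates of -0.12 and -0.069.

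In the pathway Ctrl shRNA 2 was more often the highest library than the lowest, and over all genes tested more often the lowest. It was the highest of the 6 libraries in 12 of the 31 genes (38.7%), against 34.4% of all genes tested, and the lowest in 9 (29.03%), against 38.6%. The genes in which it exceeded the mean of the other controls most were Msmo1 (2.46 times), Nsdhl (1.85 times), Ebp (1.64 times), Sc5d (1.598 times), Idi1 (1.57 times) and Ggps1 (1.56 times). Leaving it out moved the estimate of 7 genes across 0, and none of these was larger in size than 0.18 with all libraries.

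A further 49 genes of the same pathways, among them enzymes of isoprenoid use, proteases and ligases of SREBP processing and other lipoprotein receptors, were listed from general knowledge, and 45 of them could be tested. By edgeR with all 6 libraries, 0 were called higher and 0 lower, beside 0.0588% and 0.00653% of all genes. Unadjusted they were 4 and 4, beside 7.47% and 6.65%. By edgeR without Ctrl shRNA 2, 0 were called higher and 1 lower, beside 1.11% and 0.675% of all genes. Unadjusted they were 6 and 6, beside 9.54% and 10.3%. DESeq2 and limma voom called more of these genes, as given below. The gene called by edgeR was Vldlr (ENSMUSG00000024924, chr19:27216484-27254231, plus strand), the very low density lipoprotein receptor, which takes up triglyceride-rich particles. It was at 37.1, 33.8 and 41.1 CPM in the controls and 16.9, 17.7 and 19.1 CPM in the knockdown. The groups were far apart, and the log2 fold change was -1.06 (SE 0.11, adjusted p = 0.0575) with all libraries and -1.14 (SE 0.092, adjusted p = 0.00110) without Ctrl shRNA 2. This difference was larger in size than that of any of the 31 pathway genes in either comparison. The 9 genes of SREBP processing and sterol-regulated degradation had a median estimate of 0.067 with all libraries and 0.069 without Ctrl shRNA 2. The medians of the 16 tested of synthesis and isoprenoid use were 0.024 and -0.0040, those of the 14 tested of uptake, transport and storage -0.037 in both comparisons, and those of the 6 tested of efflux, LXR and oxysterols 0.016 and -0.018.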

How the data were processed

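The data were RNA-seq of 6 samples of MLE12 cells, 3 in each of the groups Ctrl shRNA and knockdown, and the labels gave each sample its group and replicate number. The authors deposited whole-number counts per gene, without normalization, and FPKM values, which equal the counts over gene length and over a scaled depth of 0.716 to 1.08 times each total. Libraries were paired-end on an Illumina instrument. The submitters' processing notes name HISAT2 2.0.5, StringTie 1.3.3b, featureCounts 1.5.0-p3 and mm10, without roles, and the labels also name Trinity. The use of strand is not given in the sources used here. Of 54409 genes also in GENCODE M21, 53499 (98.3%) matched it in start and end, and coordinates are therefore given on GRCm38. All columns of per-sample values were used, with 0 left out.

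In edgeR 4.0.16 (R 4.3.3), low genes were dropped by filterByExpr, TMM gave the scaling and a quasi-likelihood F-test compared the groups without covariates, with p-values adjusted by Benjamini-Hochberg over the 15307 genes tested (15709 without Ctrl shRNA 2). The threshold was an adjusted p under 0.05. The SE is the size of the log2 fold change divided by the square root of F, and 95% intervals use the same degrees of freedom. Groups were called not overlapping where every CPM of one lay beyond every CPM of the other. An exact permutation of 3 samples against 3 cannot give a two-sided p under 0.1, so none is given. The alternatives comprised median-of-ratios size factors, no count filter, DESeq2 1.42.0, limma 3.58.1 with voom and sample quality weights, limma on log2(FPKM + 1) for genes with an FPKM of at least 1 in 3 libraries, the replicate number as a block, and each library left out in turn. DESeq2 without Ctrl shRNA 2 was added after seeing the data. The tests were also run on simulated counts with known changes, and the outcome is not given here. Between libraries of one group, chi-square divided by its degrees of freedom ran from 5.67 to 454, above the sampling noise, so each counted as 1 replicate. Figures were drawn with matplotlib 3.10.9 in Python 3.11.15 with pandas 2.3.3.

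The 32 genes, their steps, the 49 further pathway genes and the marker lists (epithelial, alveolar type 2, fibroblast, leukocyte and endothelial) were chosen with earlier results of these data known. Full statistics were given for pathway genes past the threshold in edgeR with all libraries or without Ctrl shRNA 2, for those whose groups did not overlap over all 6 libraries, for further pathway genes past the threshold, and for the targeted genes. Other pathway genes are given by level and estimate. Genes named outside this rule were chosen after their values were seen. The leukocyte markers summed to 1.92 to 2.58 CPM in the controls and 2.57 to 3.06 CPM in the knockdown, the endothelial ones to 36.7 to 45.8 and 31.9 to 33.3 CPM, and the epithelial ones to 1051 to 1185 and 1184 to 1296 CPM. Some genes of the pathway are not reported here.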

Additional observations from a re-analysis of the deposited data

How the results depend on the processing

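The 31 tested genes had 401 alternative estimates, of which 367 kept the direction and the side of the threshold, 5 passed it and 29 in 8 genes turned direction. The main estimates of those 8 were at most 0.18 in size. With limma voom and sample quality weights, 2 pathway genes passed higher and 2 lower, and 5 and 6 of the 45 further pathway genes did, beside 8.67% and 6.34% of all genes. With DESeq2, 2 further genes were lower, Vldlr and Lrpap1, beside 1.18% of all genes, and without the count filter 1 was lower, Vldlr, beside 0.011% of all genes. DESeq2 without Ctrl shRNA 2 called 1 pathway gene higher (Srebf2), 1 further gene higher (Srebf1) and 2 lower (Vldlr and Lrpap1), beside 3.43% higher and 2.36% lower of all genes. Without Ctrl shRNA 2 the median estimate of the pathway was 0.049 in edgeR and 0.054 in DESeq2, and that of the squalene and sterol steps was 0.069 and 0.073, and 0.071 with quality weights.

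Without Ctrl shRNA 2 the estimates that turned were Mvk -0.056, Idi1 0.18, Ggps1 0.059, Fdft1 0.064, Sc5d 0.082, Stard4 -0.022 and Soat1 0.036 in edgeR and, in DESeq2, Mvk -0.052, Idi1 0.19, Ggps1 0.063, Fdft1 0.069, Sc5d 0.087, Stard4 -0.017 and Soat1 0.041. With quality weights they were Mvk -0.12, Idi1 0.12, Ggps1 0.023, Fdft1 0.027, Sc5d 0.071 and Stard4 -0.0070. Acat2 was 0.0095 without the count filter, and Stard4 was -0.0029 in DESeq2 and -0.0026 with median-of-ratios size factors. The cause was not tested. With each library left out in turn, Acat2 ran from -0.081 to 0.092, Mvk from -0.056 to 0.13, Idi1 from -0.18 to 0.18, Ggps1 from -0.30 to 0.059, Fdft1 from -0.11 to 0.064, Sc5d from -0.29 to 0.082, Stard4 from -0.022 to 0.042 and Soat1 from -0.32 to 0.036.

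Idh3a and Slc25a1 passed the threshold in DESeq2 (-0.86 and -0.63), with quality weights (-0.67 and -0.68) and, without Ctrl shRNA 2, in edgeR (-0.60 and -0.66) and DESeq2 (-0.60 and -0.66). In edgeR with each library left out in turn, Idh3a ran from -0.997 to -0.60 and Slc25a1 from -0.66 to -0.57. In these edgeR fits the pathway genes called remained 0 and 0, beside at most 1.11% higher and 0.675% lower of all genes. The further genes called by edgeR ran from 0 to 1 lower. The genes whose groups did not overlap ran from 5 to 8 higher and from 2 to 7 lower (17.8 to 23.7% and 13.9 to 21.8% of all genes, both shares highest without Ctrl shRNA 1). In edgeR the median of the pathway ran from -0.0038 to 0.049 and that of the squalene and sterol steps from -0.11 to 0.069.

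Samples with the same number did not deviate together (correlations of -0.155, -0.092 and 0.043), so the numbers do not pair them. With the replicate block, 0 and 0 pathway genes passed and 0 of all genes did (687 higher and 446 lower unadjusted), with a median of 0.0066 for the pathway.

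The effective size of Ctrl shRNA 2 was 19760000 counts against 28680000 to 30960000 in the other 5 libraries, with 3 libraries per group. With all 6 libraries the 95% interval of 16 of the 31 genes did not lie within ±0.5, so differences of that size in at least one direction remain possible for them.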
